A study of Drosophila melanogaster with 12 samples.

Results

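The beat genes of Drosophila melanogaster encode the Beaten path family of immunoglobulin proteins. The 10 members described here are beat-Ia, beat-Ib, beat-Ic, beat-IIa, beat-IIb, beat-IV, beat-Va, beat-Vb, beat-Vc and beat-VII. They were given as a list of symbols, which was chosen with earlier results of these data known. These members are 10 of the 14 beat genes in a table of 17050 genes, so they do not stand for the whole family. The remaining 4 (beat-IIIa, beat-IIIb, beat-IIIc and beat-VI) and the 8 genes of the side family are given for comparison. The data are 12 RNA libraries of γ neurons, a class of Kenyon cells (the intrinsic neurons of the mushroom body), sampled 6, 12, 18 and 24 h into pupal development (hours after puparium formation). Each time has replicates A, B and C. All libraries have the same genotype: a y,w/+ background, the nuclear red fluorescent reporter UAS-RedStinger/+, and the driver 71G10 over an RNA interference transgene against the nuclear receptor gene Hr51 (UAS-HR51 RNAi). Brains of pupae of both sexes were dissociated, and 1000 DsRed-positive cells per library were sorted. The cells in a library are thus those in which 71G10 was active, and no control genotype was analysed here. Time was therefore the only comparison, and no difference can be ascribed to the RNA interference. Nothing in the labels ties replicates to separate dissections, so the p-values measure the spread between these libraries, which may be technical.

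Beat proteins carry immunoglobulin domains and act at the surface of neurons and their targets. The founding member, Beat-Ia, is secreted by motor axons and is needed for these axons to leave their bundles at their target muscles. Its partner is Sidestep, the product of side, a membrane protein on the targets. Further members of the beat and side families bind each other in matching pairs, among them Beat-IIa and Beat-IIb with Side-IV, and Beat-VI with Side-II. The γ neurons prune their larval axon branches early in metamorphosis and later grow adult branches, and the times sampled lie in this period.

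Values are reads per 10000000 mapped reads, from a 3′-end method (MARS-seq), and are not divided by gene length. A single read was worth 2.665 to 6.261 units, since libraries held 1597241 to 3752666 mapped reads. Between 7521 and 8217 genes were read per library. Hr51, the gene targeted, stood at 2661 to 5666 over the 12 libraries. All 11 Kenyon cell markers passed the filter on low values, with summed levels of 171600 to 285700. Of 10 glial markers 2 passed, and their summed level was 1398 to 4845. Of 8 hemocyte markers 1 passed, and Hml, He and NimC1 were at 0 in every library. The summed level of the 8 was 10.04 to 596, with 21.3 to 353 at 6 h and 112 to 596 at 24 h. A pair of libraries stood apart from the other replicates of their time. The library labelled 6 h replicate A had Kr-h1, a zinc finger gene of juvenile hormone response, at 8.62, against 6675 and 5491 in B and C. In the library labelled 12 h replicate A, Kr-h1 was at 2628, against 80.3 and 151. EcR, the ecdysone receptor gene, was lower in the libraries where Kr-h1 was high: it stood at 1431, 1265 and 1665 in 6 h B, 6 h C and 12 h A and between 3558 and 4945 elsewhere. Each of these libraries thus went against its label's group in these genes, and whether their labels were exchanged was not tested. The times of 6 h and 12 h given for replicate A below are those of the labels, and all means and tests with 12 libraries rest on them. Tests are therefore given with all 12 libraries and with the 8 libraries of replicates B and C, pooled ratios for B and C and correlations as stated. The choice of B and C was made with the values known, and its p-values are to be read with that in mind.

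The members' summed reads followed the same division of the libraries, and beat-Ic and beat-Ib made up most of the sum in the high libraries. Not every member followed it: beat-IV was highest in 6 h B and beat-VII in 6 h C. Together the members made up 0.142% of mapped reads in 6 h replicate A, 0.00706% in B and 0.0132% in C. At 12 h the share was 0.0121% in A, 0.105% in B and 0.0827% in C. It lay between 0.0943% and 0.155% at 18 h and between 0.134% and 0.161% at 24 h. The low libraries were thus 6 h B, 6 h C and 12 h A, and replicate A ran opposite to B and C from 6 to 12 h. As a mean over 3 libraries the share was 0.0542% ± 0.0764 (SD, n = 3) for 6 h, 0.0665% ± 0.0485 for 12 h, 0.129% ± 0.0314 for 18 h and 0.147% ± 0.0132 for 24 h. The spread was larger than the mean at 6 h and narrow at 24 h. In a bulk library, fewer cells that use a gene and less RNA per cell cannot be told apart.

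**Figure D1:**
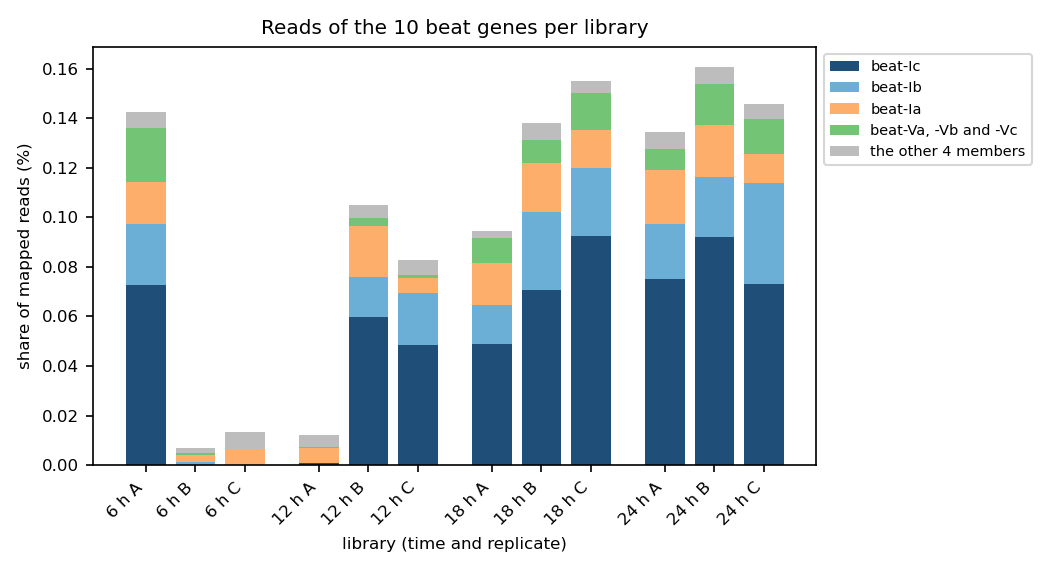
Share of mapped reads (%) taken by the 10 beat genes in each of the 12 libraries, stacked by gene or group of genes, with libraries grouped by time. The bars of 6 h B, 6 h C and 12 h A reach at most 0.0132%, while those of the 18 and 24 h libraries reach 0.0943% to 0.161%, and beat-Ic (dark blue) makes up the largest part of every tall bar.

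The genes beat-Ia, beat-Ib and beat-Ic lie within 176.6 kb of chromosome 2L. The gene beat-Ib runs from 15905134 to 15962435 (minus strand), beat-Ic from 16000291 to 16041703 (plus strand) and beat-Ia from 16049965 to 16081684 (plus strand), with identical coordinates in the BDGP6 annotation. Of these genes beat-Ic had the widest range. At 6 h its value was 7250 in replicate A, 2.67 in B and 0 in C. At 12 h it was 79.9 in A, 5993 in B and 4868 in C. The 18 h libraries had 4883, 7076 and 9240, and the 24 h libraries 7496, 9202 and 7328. There were thus 9 libraries between 4868 and 9240, and the other 3 had 24, 1 and 0 reads. In the 9 high libraries, beat-Ic took 50.3% to 59.6% of the members' reads.

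The neighbour beat-Ib was low in the same 3 libraries. Its 6 h values were 2473, 109 and 6.261 in replicates A, B and C. Its 12 h values were 1579 and 2078 in B and C, and in A it had 1 read. At 18 h it stood at 1566, 3135 and 2760, and at 24 h at 2250, 2417 and 4042. A difference from beat-Ic was 6 h replicate B, where beat-Ib had 41 reads and beat-Ic had 1.

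The motor axon gene beat-Ia varied over a far narrower range and was read in every library. It measured 1697, 312 and 626 at 6 h and 593, 2068 and 599 at 12 h. Values at 18 h were 1700, 1962 and 1528, and those at 24 h were 2159, 2092 and 1177. Low values were found in 6 h B, 12 h A, 12 h C and 6 h C (312, 593, 599 and 626). Of these, 12 h C was below 6 h C, although beat-Ib and beat-Ic were high in 12 h C.

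**Figure D2:**
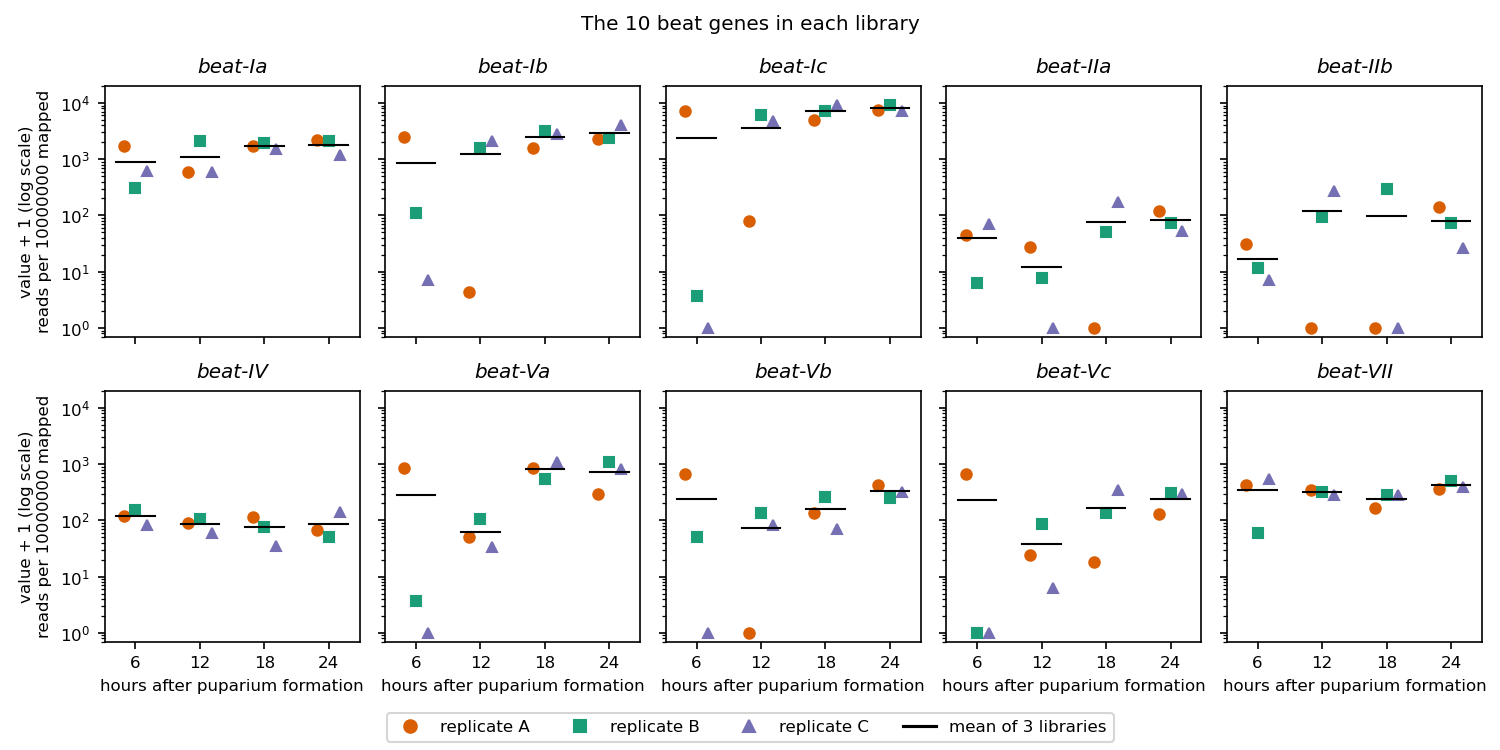
Value + 1 (reads per 10000000 mapped reads, log scale) of each of the 10 beat genes against time after puparium formation, 1 point per library (circle, square and triangle for replicates A, B and C) and a bar for the mean of 3 libraries. For beat-Ib, beat-Ic, beat-Va, beat-Vb and beat-Vc the 6 h circle lies far above the square and triangle. For beat-Ib, beat-Ic, beat-IIb and beat-Vb the 12 h circle lies far below the square and triangle.

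Part of the beat-Ic signal fell in its first intron. This intron is 12.7 kb of a gene with 8 exons, and it holds CR43825, CG13245, CG43816 and CR44844 on the same strand. The gene CG43816 has the same coordinates as CG13245 (16004325 to 16005461) and equal reads in 9 of 12 libraries, so they count as 1 signal. At 18 h, CG13245 had 279, 334 and 396 reads in A, B and C and CG43816 had 278, 332 and 395. The cause of this slight difference was not tested. Over the 12 libraries CG13245 had a mean value of 1060 and CR44844 one of 241.7, while CR43825 had 18.0. The gene value of beat-Ic includes such reads: among 290 pairs with a gene nested on the same strand inside another, the host's reads were at least those of the nested gene in all 290. On the opposite strand the nested gene had more reads than its host in 129 of 188 pairs, and the opposite-strand genes in this intron, CG34167, CR43826 and CG31820, had means of 0, 0 and 1.80. In the 9 high libraries, the reads inside these genes made up 16.6% to 33.4% of the beat-Ic value. None of the 24 beat-Ic reads of 12 h replicate A fell in them. Less these reads, beat-Ic still stood at 3253 to 7676 in the 9 libraries and at 0, 0 and 79.9 in 6 h B, 6 h C and 12 h A. Whether the intronic reads come from beat-Ic transcripts or from the genes annotated there was not tested.

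The beat-V genes form a second cluster, of 188.8 kb on chromosome 3R. It holds beat-Vc from 12746036 to 12783192 (minus strand, with an end at 12783216 in BDGP6), beat-Va from 12840560 to 12848419 (minus) and beat-Vb from 12916056 to 12934813 (plus). In 6 h replicate A all 3 were high: beat-Va was at 853, beat-Vb at 659 and beat-Vc at 676. In 6 h B and C, beat-Va had 1 and 0 reads, beat-Vc had 0 and 0, and beat-Vb stood at 50.6 and 0. The 6 h value of replicate A was the highest of all 12 libraries for beat-Vb and beat-Vc.

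At 12 h the beat-V genes were low in all 3 replicates, unlike beat-Ib and beat-Ic. The 12 h values of beat-Va were 49.96, 104 and 32.4 in A, B and C. Those of beat-Vb were 0, 134 and 81.0, and those of beat-Vc were 23.3, 83.7 and 5.397. Later, beat-Va stood at 854, 553 and 1083 at 18 h and at 291, 1095 and 803 at 24 h. The gene beat-Vb measured 134, 262 and 69.2 at 18 h and 429, 253 and 320 at 24 h. The gene beat-Vc measured 17.3, 135 and 341 at 18 h and 128, 310 and 291 at 24 h.

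The members beat-IIa, beat-IIb, beat-IV and beat-VII had fewer reads or a narrower range. Beat-IIa and Beat-IIb are the partners of Side-IV, and their genes lie within 133.9 kb of chromosome 3R (beat-IIb from 17232253 to 17265049 and beat-IIa from 17320004 to 17366119, both minus). The gene beat-IIa ranged from 0 to 173 with a median of 46.9, and its largest read count in a library was 35. The gene beat-IIb ranged from 0 to 291 with a median of 27.8, and its replicates were far apart. At 6 h it stood at 30.2, 10.7 and 6.261 in replicates A, B and C, and at 12 h at 0, 93.7 and 269.8, so that A was the highest at 6 h and the lowest at 12 h. At 18 h it had 291 in replicate B and 0 in A and C, and at 24 h it had 138, 72.8 and 25.4. A library without a read still allows up to 3 reads, which is 7.99 to 18.8 units, so these zeros do not show absence. The gene beat-IV (3R, 23557412 to 23580077, plus) lay between 34.6 and 155 in every library. It measured 119 ± 36.6 at 6 h (SD, n = 3) and 84.3 ± 22.7 at 12 h. The gene beat-VII (3R, 26645282 to 26681966, minus) lay between 165 and 532 in 11 libraries and at 58.6 in 6 h replicate B.

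With all 12 libraries, no beat gene passed the test from 6 to 24 h. The filter, a value of 50 or more in 3 or more libraries, kept 6969 genes, all 10 members included. They were tested with limma on log2(value + 1), and genes were called at a Benjamini-Hochberg adjusted p under 0.05. The limma test called 0% of the 6969 genes in this comparison and 0% in each of 6 to 12 h, 12 to 18 h, 18 to 24 h and any change over the 4 times, so a count of 0 members is at the background. At an unadjusted p under 0.05 there were 943 genes and 5 members from 6 to 24 h. The edgeR test on recovered reads called 0 genes and DESeq2 called 171, none of them a member. The log2 change from 6 to 24 h was positive for 9 of 10 members. The median was 2.78, against -0.003 over all genes tested. It was 8.06 ± 2.28 (SE) for beat-Ic, with limma adjusted p = 0.183, and 5.44 ± 1.65 for beat-Va, with adjusted p = 0.197. For beat-Ia it was 1.33 ± 0.543, with adjusted p = 0.307. The others were 4.48 ± 1.94 (beat-Ib), 4.69 ± 2.0 (beat-Vc), 3.34 ± 1.95 (beat-Vb), 2.23 ± 2.27 (beat-IIb), 1.51 ± 1.86 (beat-IIa), 0.79 ± 0.659 (beat-VII) and -0.55 ± 0.779 (beat-IV). These sizes depended on the scale, since 6 h replicate A was high. On recovered reads with all 12 libraries, edgeR gave 1.82 for beat-Ic, 1.82 for beat-Ib, 1.44 for beat-Va, 0.56 for beat-Vb and 0.19 for beat-Vc. The group means of beat-Ic were 2417 ± 4185 at 6 h and 8009 ± 1036 at 24 h (SD, n = 3). A single library decided this outcome: without 6 h replicate A, 676 genes were called, and with them beat-Ia, beat-Ib, beat-Ic, beat-Va and beat-Vc. Leaving out any other library called 0 members.

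With replicates B and C alone, 6 of the 10 members rose between 6 and 24 h and 0 fell. The background was 5.29% of the genes tested called higher and 4.78% called lower. The largest log2 changes were 12.07 ± 0.477 (SE) for beat-Ic (limma adjusted p = 2.91e-10), 8.94 ± 1.08 for beat-Va (adjusted p = 3.56e-05) and 8.23 ± 1.59 for beat-Vc (adjusted p = 0.00259). Since these genes had 1, 1 and 0 reads at 6 h, their fitted sizes depend on the pseudocount of 1. For beat-Vc the reads of both libraries pooled give at least 53.7-fold higher at 24 h, counting 6 h at the 3 reads that none observed allows. The change was 6.79 ± 0.801 for beat-Ib (adjusted p = 2.93e-05), and its pooled reads, 42 at 6 h and 1877 at 24 h, give a ratio of 40.4 (95% counting interval 29.8 to 56.3). It was 5.31 ± 1.53 for beat-Vb (adjusted p = 0.0378), with a pooled ratio of 8.0 (4.97 to 13.6), and 1.83 ± 0.503 for beat-Ia (adjusted p = 0.0298), with a pooled ratio of 4.11 (3.54 to 4.78). The call of beat-Ia was lost without any of 5 libraries, 6 h B or the replicates B and C of 18 and 24 h (adjusted p up to 0.286). That of beat-Vb was lost without any of 7, all but 6 h B (adjusted p up to 0.257), and that of beat-Vc without 24 h B (adjusted p = 0.053). With no filter on low values, beat-Ia (adjusted p = 0.0759) and beat-Vb (0.0845) were not called, and edgeR did not call beat-Vb (adjusted p = 0.0803). The members not called had log2 changes of 1.56 ± 1.84 (beat-IIa), 2.26 ± 2.12 (beat-IIb), -0.40 ± 1.11 (beat-IV) and 1.31 ± 0.805 (beat-VII). The members' median change was 3.79, also with beat-Vc at its bound, against 0.07 over all genes tested. Over the 4 times, any change was called for beat-Ib, beat-Ic, beat-Va and beat-Vc, 4 of 10, where 9.44% of all genes were called. Over the 3 libraries of a time, the summed level of 9 pan-neuronal markers was 86040 to 122700 at 6 h and 153300 to 188200 at 24 h. That of the glial markers was 2313 to 4845 at 6 h and 1398 to 2614 at 24 h. The part of these markers in the results was not tested.

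**Figure D3:**
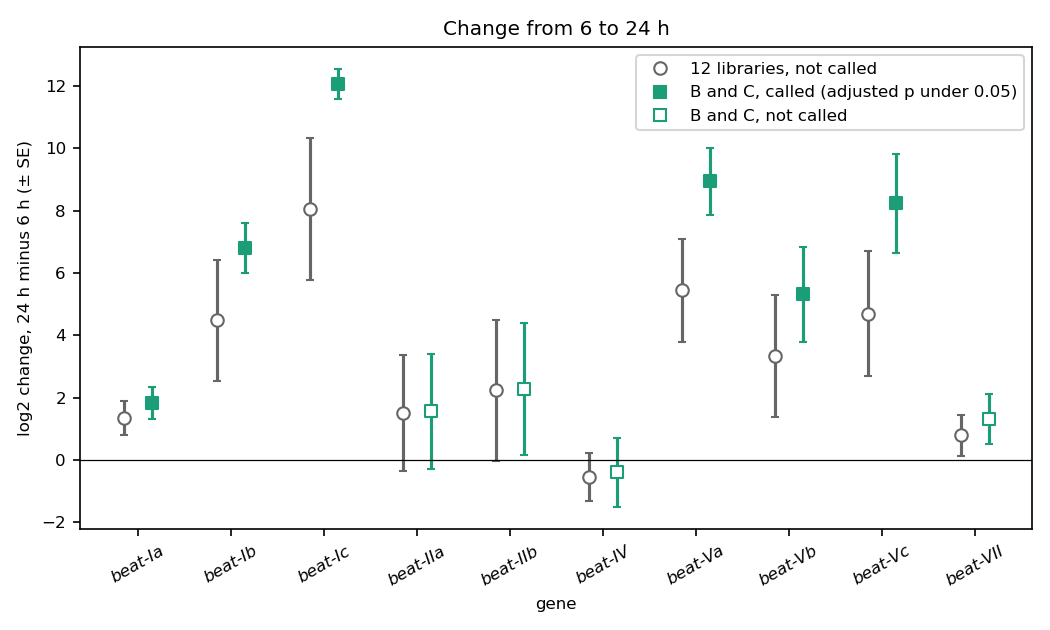
Log2 change of each beat gene from 6 to 24 h (24 h minus 6 h, on log2(value + 1), bars ± SE) with all 12 libraries (grey circles) and with replicates B and C (green squares), filled where the adjusted p was under 0.05. With all 12 libraries 0 members were called, and with B and C 6 were, from beat-Ia at 1.83 to beat-Ic at 12.07.

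In replicates B and C, the calls over single steps fell in the first step. From 6 to 12 h, beat-Ib, beat-Ic and beat-Va were called higher and 0 members lower, where 3.3% of all genes tested were called higher. The log2 change was 11.46 ± 0.477 (SE) for beat-Ic (limma adjusted p = 1.25e-09), 6.00 ± 0.801 for beat-Ib (adjusted p = 0.000212) and 4.949 ± 1.08 for beat-Va (adjusted p = 0.0109). With all 12 libraries these changes were 5.48 ± 2.28, 0.95 ± 1.94 and 1.94 ± 1.65, none called. With edgeR they were 0.595, 0.49 and -2.15, so that the direction of beat-Va turned, and its group means were 285 ± 492 at 6 h and 62.0 ± 37.2 at 12 h (SD, n = 3). In reads of both libraries pooled, beat-Ic went from 1 to 2693, which is 2980 times the level (534 to 118000 as a 95% counting interval), and beat-Ib from 42 to 857, a ratio of 22.5 (16.5 to 31.5). For beat-Va the step was from 1 read to 37, and its call was lost without 12 h replicate B (adjusted p = 0.114) and with a pseudocount of 20 (adjusted p = 0.125). The members' median change from 6 to 12 h was 3.996, or 3.57 with beat-Vc at its bound of at least 9.58-fold, against 0.16 over all genes tested. Over all genes, 230 were called higher and 160 lower; with median-ratio scaling the split was 170 to 195 and the median of all genes 0.02, and the same 3 members were called.

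Between 12 and 18 h, limma called 0 members in replicates B and C, with 0.0287% of all genes called higher. The largest pooled ratio among members with over 10 reads at 12 h was that of beat-Va, 10.4 (95% counting interval 7.42 to 15.1), from 37 to 350 reads. With all 12 libraries its log2 change was 3.83 ± 1.65 (limma adjusted p = 0.762). In B and C it was 3.71 ± 1.08 (SE, limma adjusted p = 0.201), and it was called by edgeR (adjusted p = 0.0099) and DESeq2 (adjusted p = 2.02e-05). The pooled ratio was 4.28 (2.76 to 6.87) for beat-Vc, against 1.45 (1.38 to 1.53) for beat-Ic and 1.67 (1.53 to 1.83) for beat-Ib. At an unadjusted p under 0.05 limma had 2 members at this step and 677 genes in all. From 18 to 24 h it called 0 members, with 0.1% of all genes called higher, 606 genes and 0 members at an unadjusted p under 0.05, and 0 members by edgeR and DESeq2. Whether the step differs between beat-Va and beat-Ic was not tested.

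Of the 4 other beat genes, 0 were called higher and 1 lower between 6 and 24 h with replicates B and C. The background was 5.29% of the genes tested called higher and 4.78% called lower. The median log2 change of the 4 genes was -0.397, against 3.79 for the 10 members. Among these, the log2 difference of beat-IIIb was 2.83 ± 1.03 (SE), which limma did not call (adjusted p = 0.104), with a pooled ratio of 6.61 (4.26 to 10.7). With all 12 libraries the difference of beat-IIIb was 0.88 ± 1.09 (limma adjusted p = 0.795), and 24 h replicate A was at 20.4. The gene beat-IIIc fell, by 1.73 on the log2 scale (SE 0.452, limma adjusted p = 0.022). Its values were 284, 965 and 1233 at 6 h and 2241, 1231 and 497 at 12 h. Those of 18 h were 750.3, 629 and 584, and those of 24 h were 459, 383 and 283. With all 12 libraries its change was -0.92 ± 0.548 (adjusted p = 0.495). It was high in 6 h B, 6 h C and 12 h A, where beat-Ib and beat-Ic were low, but also in 12 h B. Its call was lost without 6 h B, 6 h C, 24 h B or 24 h C, with adjusted p up to 0.168. The gene beat-VI, whose protein binds Side-II, was read in every library, at 1245 to 4150. Of the 8 side genes, side was called higher and 0 lower, where 5.29% of all genes tested were called higher and 4.78% lower. The gene side, which encodes the partner of Beat-Ia, stood at 1654, 325 and 288 at 6 h and at 703, 522 and 621 at 12 h. It measured 403, 1152 and 544 at 18 h, and 862, 2592 and 2488 at 24 h. In replicates B and C its log2 change was 3.05 ± 0.397 (SE, limma adjusted p = 7.41e-05), with a ratio of pooled reads of 8.1 (95% counting interval 6.9 to 9.56), and with all 12 libraries it was 1.72 ± 0.6 (adjusted p = 0.246). Of its 3 steps the largest was from 18 to 24 h, with a ratio of 2.92 (2.6 to 3.27), although the limma test did not call it (log2 change 1.68 ± 0.397, adjusted p = 0.134). The genes of Side-II (1805 to 4602), Side-III (1292 to 3557), Side-VI (751 to 1734) and Side-VII (1150 to 2948) were read in every library. That of Side-IV, the partner of Beat-IIa and Beat-IIb, ranged from 0 to 237.5 with a median of 53.5.

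**Figure D4:**
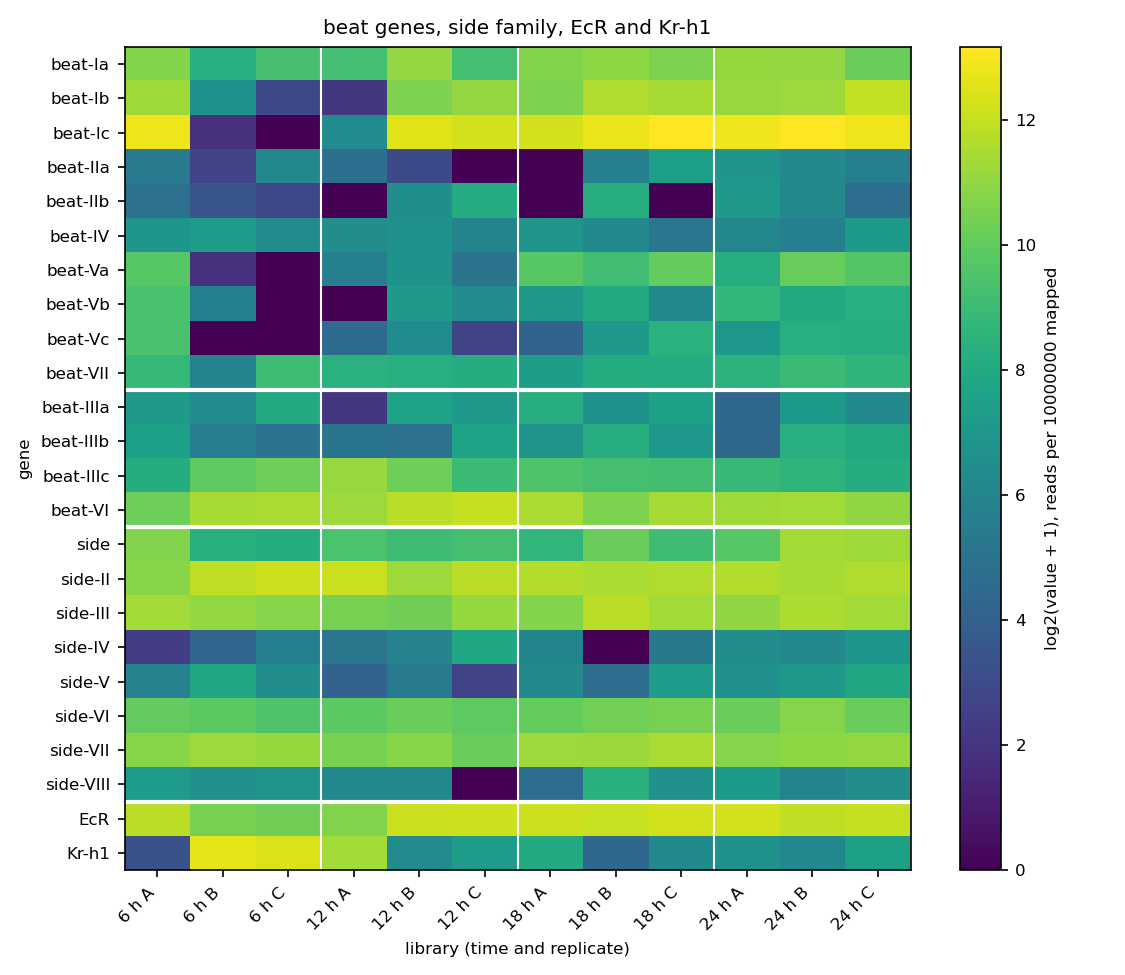
Heatmap of log2(value + 1) (reads per 10000000 mapped reads) for the 10 beat genes, the 4 other beat genes, the 8 side genes, EcR and Kr-h1 (rows, separated by white lines) in the 12 libraries (columns). The cells of beat-Ib and beat-Ic in 6 h B, 6 h C and 12 h A are darker than in the other libraries, and those of Kr-h1 are bright there. The genes beat-VI, side-II, side-III, side-VI and side-VII are bright throughout.

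Among the members, the highest correlations of log2(value + 1) over the 12 libraries were 0.943 between beat-Ib and beat-Vb, 0.908 between beat-Ic and beat-Va and 0.907 between beat-Va and beat-Vc. Within the beat-I cluster they were 0.873 for beat-Ib with beat-Ic, 0.798 for beat-Ia with beat-Ic and 0.681 for beat-Ia with beat-Ib. These points share libraries and their depth. In 6 h C and 12 h A, beat-Ib had 1 read and beat-Vb 0 reads each, and r of the member pairs without such libraries was not computed. In 18 h C, beat-Ib was at 2760 and beat-Vb at 69.2. The genes whose pattern was most like that of beat-Ic over 12 libraries were sif, which encodes a Rac exchange factor (r = 0.992), sca, a secreted glycoprotein gene (0.985), Lkr, the leucokinin receptor gene (0.984), CG43729 (0.983) and ab, a zinc finger gene (0.981). Within the 9 libraries where beat-Ic was high, r was 0.493 to 0.689 for these genes. Over the 8 libraries of replicates B and C the first were sif (0.995), ab (0.991), nemy (0.99), HmgZ (0.989) and sdt (0.988), with r of 0.339 to 0.836 without 6 h B and 6 h C. Those most like beat-Va were led by MESR3 (0.974, and 0.896 without 6 h B and 6 h C), and those most like beat-Ib by CG43816 and CG13245 (0.975 each), which lie inside beat-Ic. For beat-Ia the first was CG4497 (0.949, and 0.918 without 6 h B and 12 h A). For beat-VII it was CG18065 (0.863), which fell to 0.478 without 6 h B and 18 h A.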

How the data were processed

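The deposited table holds 1 normalised signal per gene and library, which the authors scaled to 10000000 mapped reads, per the file headers. Tools named in the submitters' processing notes, without roles, are HISAT 0.1.5, HOMER and bcl2fastq. The treatment of molecular identifiers and multiply mapped reads is not stated there. Per the labels' protocols, the libraries are MARS-seq, which tags 3′ ends. The length given for a gene equals its span in all 17050 rows. Nested genes behaved as if reads in introns, on the gene's strand, were counted. The counting command is not stated, and slight differences between CG43816 and CG13245 were left unexplained. Coordinates are those of the deposited table, counted from 1. They were compared with the BDGP6 annotation.

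In each library 100% of values came out as whole reads (tolerance 0.02 reads), and reads recovered this way were used for edgeR 4.0.16 and DESeq2 1.42.0. The main test was limma 3.58.1, run in R 4.3.3 on log2(value + 1) with its trend option, with 1 mean per time, Benjamini-Hochberg adjustment over 6969 genes and a threshold of 0.05. It was the test planned for normalised values, which the table holds, and edgeR was planned only for raw counts. Replicates B and C were refitted over the same genes. Log2 changes are differences of means of log2(value + 1), and for genes near 0 in a library they can lie above or below the ratio of reads. Counting intervals (95%) and the floor of 3 reads cover counting error only. All 10 members are given. Likeness was ranked by Pearson r for members with a mean value of at least 200, leaving out genes overlapping the member, and the first 5 were kept. The members, lists and tests were chosen with earlier results of these data known. The scripts were tested on simulated data. No simulated library stood apart from the others of its time, so that test does not cover this feature of the data. The side genes were matched by synonyms. No sequences are shown. Groups of 3 libraries are too small for a test of single outlying libraries.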

Additional observations from a re-analysis of the deposited data

How the results depend on the processing

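Among single libraries left out of the 12, 6 h replicate A gave the most calls from 6 to 24 h and from 6 to 12 h. With all 12 libraries, leaving out each library in turn gave 0 to 506 genes for any change over the 4 times, 0 to 676 from 6 to 24 h, 0 to 60 from 6 to 12 h, 0 to 1 from 12 to 18 h and 0 to 4 from 18 to 24 h, and 0 to 5, 0 to 5, 0 to 2, 0 and 0 members. Replicates B and C gave 658, 702, 390, 25 and 9 genes and 4, 6, 3, 0 and 0 members. DESeq2 with all 12 gave 119, 171, 3, 5 and 22 genes, and median-ratio scaling gave 4 genes from 18 to 24 h. Within B and C, leaving out each library gave 420 to 588, 403 to 686, 157 to 349, 1 to 22 and 0 to 14 genes in the same order, and 3 to 5, 3 to 6, 2 to 4, 0 and 0 members. The count of 3 members from 6 to 24 h came without 24 h replicate B.

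Between 12 and 18 h, replicates B and C gave these counts: 47 genes were called with a pseudocount of 5, 54 with one of 20, 2 with no filter on low values, 52 by edgeR and 129 by DESeq2, and 1 member, beat-Va, with a pseudocount of 20, edgeR and DESeq2. From 18 to 24 h there were 21 with a pseudocount of 20, 0 with no filter, 15 with median-ratio scaling, 23 by edgeR and 88 by DESeq2. For any change, DESeq2 called 991. Without beat-Ic the members' share was 0.0585% at 18 h and 0.0668% at 24 h.

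Deviations of same-letter libraries from their time means correlated at -0.341 to 0.071 in 18 pairs, and 1 of 12 libraries correlated best with its own letter. The lowest value was that of 6 h A with 12 h A, which went against their groups in opposite directions. Since these libraries also shift the deviations of B and C, the values cannot decide whether letters pair libraries. A replicate block called 0 genes with all 12. With B and C it called 704 genes for any change, 734 from 6 to 24 h and 424 from 6 to 12 h, with 5, 6 and 3 members. It called 45 genes from 12 to 18 h and 18 from 18 to 24 h.

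Directions turned in these cases, and the turned values were not called. Leaving out single libraries of B and C gave log2 changes from 6 to 24 h of -0.18 to 3.29 for beat-IIa, -1.13 to 0.33 for beat-IV and -0.27 to 2.89 for beat-VII, where 2.89, without 6 h C, was called (adjusted p = 0.0267). With all 12, beat-VII ranged from -0.21 to 1.37 and beat-Ib, from 6 to 12 h, from -1.11 to 3.85. For beat-Va from 6 to 12 h, edgeR gave -2.15 and DESeq2 -2.17. The causes were not tested.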

Other observations

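The number of beat genes with at least 1 read was 10 in 6 h replicate A, 9 in 6 h B and 6 in 6 h C. It was 8 to 10 in the 12 h and 18 h libraries and 10 in each 24 h library. The gene beat-IIIa has the same coordinates and the same reads in every library as CG34106, so the pair holds 1 signal, of 1 to 67 reads.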
